A study of Mus musculus with 6 samples.

Results

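The genes described here build the folding machinery of the endoplasmic reticulum (ER) and the unfolded protein response that adjusts it. They are the rows of the count tables whose symbol is on a list of 37 such genes and whose counts, summed over the 6 libraries, reach at least 10. The rule held for 36 of 32245 symbols. The exception, Derl3, a subunit of the channel that exports misfolded proteins from the ER, had 6 counts in BMP2 replicate 1, 3 counts in PBS replicate 1 and 0 in the other libraries. The lowest gene inside the rule, Fkbp2, had 1171 counts in all. All 36 members passed the filter on low counts and were tested.

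Polyadenylated RNA of primary cardiomyocytes from wild-type neonatal mice was sequenced in bulk after 3 treatments, with 2 libraries each. One group received bone morphogenetic protein 2 together with dorsomorphin (BMP2+DM), one received BMP2 alone, and the control group received phosphate-buffered saline (PBS). BMP2 is a secreted ligand whose receptors signal through SMAD transcription factors. Dorsomorphin, used here as an inhibitor of the BMP2 receptor, is a small kinase inhibitor that also acts on AMP-activated protein kinase. No library analysed here had dorsomorphin without BMP2, so its effect in the absence of added BMP2 was not measured. The study used the inhibitor to ask how much of the BMP2 response runs through SMAD signalling. The labels name no dose or time, and do not say whether the replicates of a group came from separate cultures or animals. The p-values therefore measure only the spread between these samples, which may be technical. In bulk RNA, fewer cells of a type and less RNA per cell cannot be told apart.

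Secretory and membrane proteins enter the ER through a translocon, fold there with chaperones and disulfide isomerases, and are sent back to the cytosol for degradation if they fail. When unfolded proteins build up, the membrane sensors encoded by Ern1, Atf6 and Eif2ak3 become active. Ern1 splices the Xbp1 mRNA, Atf6 is cut to release a transcription factor, and Eif2ak3 slows translation and favours Atf4 and Ddit3. The active Atf6 and Xbp1 proteins raise transcription of chaperone, isomerase and degradation genes. Cultures of neonatal hearts also hold fibroblasts, whose collagen output draws heavily on the same machinery.

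Gene counts per library were 10140668 and 10106667 for BMP2+DM, 11132019 and 10362486 for BMP2, and 14366042 and 11652488 for PBS. Members were well covered, with a median of 8404 counts over the 6 libraries (range 1171 to 143168), against 1711.5 over all 14378 tested genes. BMP2 replicate 1 and PBS replicate 1 stood apart in 1 respect. Models of ribosomal repeats (Gm42418 and AY036118) held 2.1% of gene counts in BMP2 replicate 1 and 1.31% in PBS replicate 1, against 0.0702% to 0.0928% in the other 4 libraries. Summed over 10 cardiomyocyte markers, levels in CPM, which are counts scaled to library size after TMM normalization, were 27336 and 27718 in BMP2+DM libraries, 24776 and 24635 in BMP2 libraries, and 32397 and 32139 in PBS libraries. All 10 were tested, so the labelled cell type was present in every group.

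A sequence element known as the ER stress response element, or ERSE, is bound by Atf6 together with the CCAAT-binding factor NF-Y. Promoter windows from RefSeq on GRCm38.p6, running from 250 bases before to 50 bases after the annotated start, were found for 31 of the 36 members. No window was in the table for Hyou1, Manf, Derl1, Atf6 or Sec61a1. An exact ERSE, spelled CCAAT and CCACG with any 9 bases between them and searched on both strands, was present in 8 of these 31 members (25.8%), against 37 of 27025 genes with a window (0.137%). The members were listed for their part in folding and the unfolded protein response, and the 37 include the 8. These shares are therefore a description and not a test. The windows of 4 abundant members whose transcripts fell are shown first, since they let the element be seen in place. Each reads 5′ to 3′ along the gene's strand, and the capitals mark the fixed bases of the ERSE, which read CGTGG and ATTGG where the element lies in the opposite orientation.

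Hspa5, chr2:34771840-34772139, plus strand: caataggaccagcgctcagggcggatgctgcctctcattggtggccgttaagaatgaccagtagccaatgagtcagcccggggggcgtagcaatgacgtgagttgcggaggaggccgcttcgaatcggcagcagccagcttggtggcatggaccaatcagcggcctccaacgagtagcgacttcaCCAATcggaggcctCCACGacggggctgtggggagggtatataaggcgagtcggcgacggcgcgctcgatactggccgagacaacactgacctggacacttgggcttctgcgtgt
Hsp90b1, chr10:86705395-86705694, minus strand: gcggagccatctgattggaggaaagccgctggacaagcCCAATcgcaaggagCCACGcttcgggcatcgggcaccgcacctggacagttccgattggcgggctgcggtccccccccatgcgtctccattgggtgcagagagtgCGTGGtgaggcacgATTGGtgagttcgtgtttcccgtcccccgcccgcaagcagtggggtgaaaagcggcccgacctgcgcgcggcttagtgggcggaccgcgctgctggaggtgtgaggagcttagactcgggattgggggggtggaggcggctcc
Calr, chr8:84846882-84847181, minus strand: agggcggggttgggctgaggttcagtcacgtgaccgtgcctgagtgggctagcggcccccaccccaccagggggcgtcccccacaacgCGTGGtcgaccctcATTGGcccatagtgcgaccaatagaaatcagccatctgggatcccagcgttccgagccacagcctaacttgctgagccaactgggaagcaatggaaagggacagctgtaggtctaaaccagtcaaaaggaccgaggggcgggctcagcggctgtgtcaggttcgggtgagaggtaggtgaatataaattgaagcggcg
Pdia6, chr12:17266339-17266638, plus strand: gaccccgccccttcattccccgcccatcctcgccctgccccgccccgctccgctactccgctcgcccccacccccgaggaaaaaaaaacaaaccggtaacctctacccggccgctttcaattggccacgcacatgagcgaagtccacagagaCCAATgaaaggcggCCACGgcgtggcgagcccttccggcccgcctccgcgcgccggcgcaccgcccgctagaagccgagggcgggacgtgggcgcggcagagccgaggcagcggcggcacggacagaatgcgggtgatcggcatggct

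The Hsp90b1 window held 2 matches in opposite orientations. The matches in the other 4 members are shown alone, each read along the strand on which CCAAT comes first, with the fixed bases in capitals.

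Canx, chr11:50325800-50325818, minus strand: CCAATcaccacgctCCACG
Creld2, chr15:88819520-88819538, minus strand: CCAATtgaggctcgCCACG
Dnajc3, chr14:118937827-118937845, plus strand: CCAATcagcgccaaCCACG
Syvn1, chr19:6046532-6046550, plus strand: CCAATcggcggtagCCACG

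A related element, ERSE-II, spelled ATTGG and CCACG with any 1 base between them, was found in the windows of Dnajb11 and Herpud1 (6.45% of members, against 0.0444% of all genes). The core of the Xbp1 element, searched only in the spelling TGACGTGG, was found in a window of 1 member, Txndc5 (3.23%, against 0.714% of all genes). Its letters do not overlap those of the other motifs in that window, which held neither. A match describes the letters of the window and does not show binding, and a window without a match says nothing about the factor.

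The summed transcript level of the folding genes was lowest in cells given BMP2 and dorsomorphin. Over the 36 members the sums were 9418 and 9610 CPM in BMP2+DM libraries, 10968 and 10866 CPM in BMP2 libraries, and 11474 and 11429 CPM in PBS libraries. The groups did not overlap. The BMP2+DM mean was 83.1% of the PBS mean, and the BMP2 mean was 95.3% of it. Serpinh1, a collagen chaperone, supplied the largest share; without it the percentages were 82 and 95.9.

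Roles differed in these sums. Lumenal chaperones and cochaperones summed to 2074 and 2066 CPM in BMP2+DM libraries, 2507 and 2401 CPM in BMP2 libraries, and 2679 and 2663 CPM in PBS libraries, so that the BMP2+DM mean was 77.5% of the PBS mean and the BMP2 mean 91.9%. Genes of ER-associated degradation summed to 582 and 603 CPM in BMP2+DM libraries, 565 and 564 CPM in BMP2 libraries, and 608 and 570 CPM in PBS libraries. For degradation genes the BMP2+DM range lay inside the PBS range. Disulfide isomerases in BMP2+DM libraries stood at 81.5% of the PBS mean and in BMP2 libraries at 97.6%. The translocon genes stood at 85.1% of the PBS mean in BMP2+DM libraries and at 104% in BMP2 libraries.

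**Figure D1:**
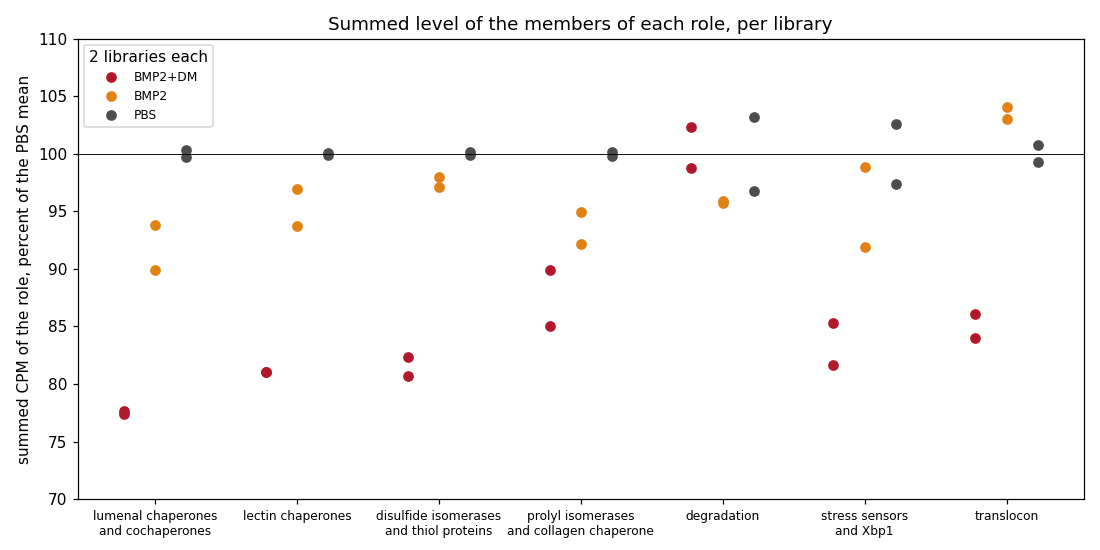
Summed CPM of each role in every library, as a percent of the mean of the PBS libraries; the axis does not start at 0. Points are libraries, with BMP2+DM left of BMP2 and PBS. The lumenal chaperones of BMP2+DM libraries average 77.5% and the degradation genes 101%.

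Each member was tested in 3 comparisons with the quasi-likelihood test of edgeR, and the threshold was a Benjamini-Hochberg adjusted p of 0.05 over all 14378 genes. The comparisons share groups, so their results are not independent of each other. BMP2 against PBS gave 7 of 36 members lower and 0 higher. That is 19.4% lower, with 9.29% of all tested genes lower, 6.55% higher and 15.8% called in either direction. The 7 were Pdia6, Pdia5, Pdia4, Manf, Hyou1, Calr and Hsp90b1. The median log2 fold change of the 36 was -0.07, against 0.00 over all tested genes, and the members ranged from -0.53 (Pdia5) to 0.31 (Ern1). At an unadjusted p under 0.05, edgeR gave 12 lower and 2 higher; DESeq2 gave 7 lower and 0 higher. In 19 members both BMP2 libraries were below both PBS libraries, and in 6 both were above, where 28% and 27.9% of all tested genes did so.

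Most of the BMP2 against PBS calls were lost when a single library was left out. Without PBS replicate 2 or BMP2 replicate 2, 1 member (Pdia6) was called. Without PBS replicate 1, 4 were called, and without BMP2 replicate 1, 5 were. Without PBS replicate 1 and BMP2 replicate 1 together, which leaves 1 library on each side and takes the spread from the BMP2+DM pair, 0 were called and the median was -0.09.

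BMP2+DM against BMP2 gave 13 of 36 members lower and 0 higher. That is 36.1% lower, with 4.44% of all tested genes lower, 4.28% higher and 8.73% called in either direction. The 13 span chaperones (Hspa5, Hsp90b1, Hyou1, Calr), disulfide isomerases (Txndc5, Pdia6, Pdia4, Pdia3, P4hb), the translocon (Sec61a1, Ssr1, Serp1) and Xbp1. The median log2 fold change was -0.17, against 0.00 over all tested genes, with a range from -0.53 (Txndc5) to 0.17 (Os9). At an unadjusted p under 0.05, edgeR gave 17 lower and 0 higher; DESeq2 gave 13 lower and 0 higher. In 23 members both BMP2+DM libraries were below both BMP2 libraries, and in 4 both were above, where 24.9% and 25.4% of all tested genes did so. Leaving out BMP2 replicate 1 gave 7 lower, and BMP2 replicate 2 gave 8. Leaving out BMP2+DM replicate 1 gave 10 and BMP2+DM replicate 2 gave 9. Without BMP2 replicate 1 and PBS replicate 1 together, 3 were called (Calr, Txndc5 and Hspa5) and the median was -0.17. As a check of the treatment, the BMP target Id1 was lower in BMP2+DM against BMP2 by a log2 fold change of -1.54 ± 0.13. Id2, Id3, Smad6 and Smad7, also in the check panel, are not reported here.

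BMP2+DM against PBS gave 17 of 36 members lower and 0 higher. That is 47.2% lower, with 11.5% of all tested genes lower, 9.38% higher and 20.9% called in either direction. The median log2 fold change was -0.19, against 0.01 over all tested genes, with a range from -0.75 (Creld2) to 0.22 (Ern1 and Derl1). At an unadjusted p under 0.05, edgeR gave 21 lower and 1 higher (Derl1); DESeq2 gave 16 lower and 0 higher. In 27 members both BMP2+DM libraries were below both PBS libraries, and in 4 both were above, where 29.5% and 29% of all tested genes did so. Leaving out 1 library at a time gave 15 to 17 lower, and leaving out PBS replicate 1 and BMP2 replicate 1 together gave 13. The members are more abundant than most genes. Among the 8557 tested genes at least as abundant as the lowest member, 13.9% were lower and 13.1% higher in BMP2+DM against PBS (27% called), 5.9% lower and 5.71% higher in BMP2+DM against BMP2 (11.6% called), and 11.2% lower and 9.5% higher in BMP2 against PBS (20.7% called).

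**Figure D2:**
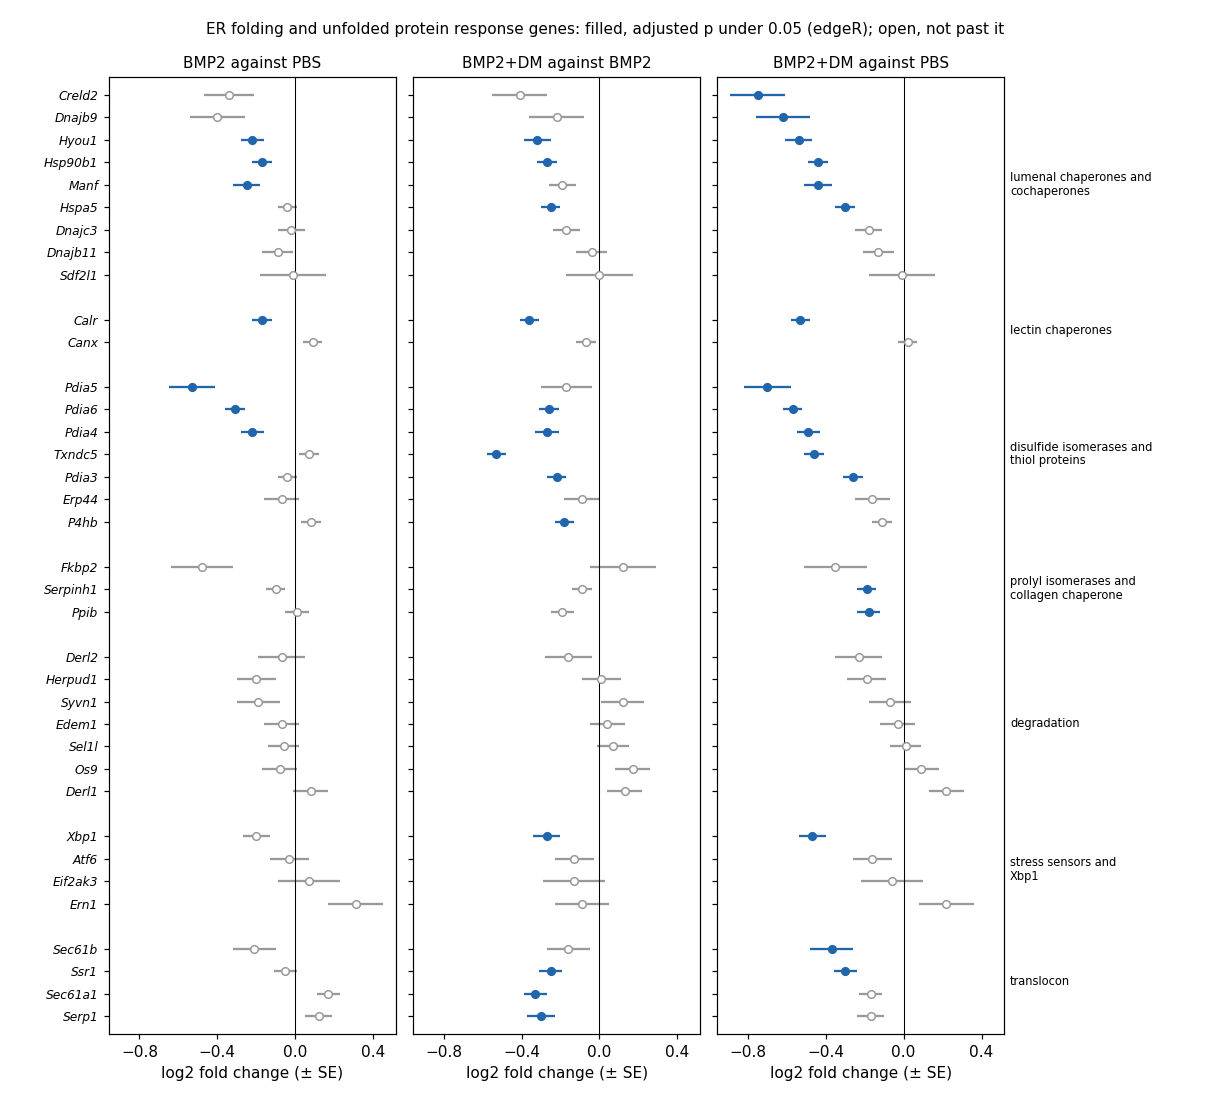
Log2 fold change ± SE of the 36 members in the 3 comparisons, by role. Filled points have an edgeR adjusted p under 0.05 and open points do not; negative values are lower in the group named first. The filled points number 7, 13 and 17, none is above 0, and no degradation gene has one.

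Among lumenal chaperones, 3 of 9 fell in BMP2 against PBS, 3 in BMP2+DM against BMP2 and 6 in BMP2+DM against PBS. The shares were 33.3%, 33.3% and 66.7%, against 9.29%, 4.44% and 11.5% of all tested genes. Hspa5 (chr2:34771970-34777547, GRCm38) encodes BiP, the Hsp70 of the ER and the partner that holds the stress sensors inactive. It had 794 and 791 CPM in BMP2+DM libraries, 946 and 943 CPM in BMP2 libraries, and 968 and 976 CPM in PBS libraries. Replicates nearly coincided, and no group overlapped another. Hspa5 fell by 16.1% in BMP2+DM against BMP2 (log2 fold change -0.25 ± 0.05, adjusted p = 0.00305) and fell by 18.5% in BMP2+DM against PBS (-0.30 ± 0.05, adjusted p = 0.00029). Between BMP2 and PBS its log2 fold change was -0.04 ± 0.05 (adjusted p = 0.649). Both calls held in all 12 alternative analyses.

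Hsp90b1, the Hsp90 of the ER lumen, had 731 and 713 CPM in BMP2+DM libraries, 907 and 838 CPM in BMP2 libraries, and 988 and 973 CPM in PBS libraries. The groups were fully separated. Its log2 fold change was -0.17 ± 0.05 for BMP2 against PBS (adjusted p = 0.041), -0.27 ± 0.05 for BMP2+DM against BMP2 (0.0031) and -0.44 ± 0.05 for BMP2+DM against PBS (8.9e-06). The first call was lost without PBS replicate 1, PBS replicate 2 or BMP2 replicate 2 (adjusted p = 0.114 to 0.309), and the second without BMP2 replicate 1 (0.0553). Of its exonic bases, 10.3% lie under exons of the opposite-strand gene 1810014B01Rik, and 5.38% in same-strand exons of Gm15344 and Gm25745. The strand setting of the counting is not given in the sources used here, so reads under opposite-strand exons cannot be told apart. Besides Txndc5 and Ppib, described below, such exons cover 8.85% of the exonic bases of Manf, 8.16% of Sec61a1 and 8.05% of Eif2ak3.

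Hyou1, a nucleotide exchange factor for BiP, had 133 and 136 CPM in BMP2+DM libraries, 168 and 168 CPM in BMP2 libraries, and 190 and 202 CPM in PBS libraries. It fell in each comparison, with log2 fold changes of -0.22 ± 0.06 for BMP2 against PBS (adjusted p = 0.0266), -0.32 ± 0.07 for BMP2+DM against BMP2 (0.00407) and -0.54 ± 0.07 for BMP2+DM against PBS (7.66e-06). Without PBS replicate 2, BMP2 replicate 1 or BMP2 replicate 2, the first of these missed the threshold (adjusted p = 0.119 to 0.201). Manf, a secreted protein that binds BiP, had 135 and 131 CPM in BMP2+DM libraries, 162 and 141 CPM in BMP2 libraries, and 182 and 179 CPM in PBS libraries. The BMP2 pair of Manf was the most spread. Manf fell in BMP2 against PBS (-0.25 ± 0.07, adjusted p = 0.0235) and in BMP2+DM against PBS (-0.44 ± 0.07, 0.000245), while BMP2+DM against BMP2 gave -0.19 ± 0.07 (0.135). Its BMP2 against PBS call was lost without PBS replicate 1, PBS replicate 2 or BMP2 replicate 2 (adjusted p = 0.0932 to 0.283).

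Creld2, a thiol protein induced by ER stress, gave the largest member fold change of BMP2+DM against PBS. It had 22.4 and 26.3 CPM in BMP2+DM libraries, 30.6 and 34.1 CPM in BMP2 libraries, and 44.2 and 37.8 CPM in PBS libraries. Levels were ordered without overlap, yet the replicates of each group were some way apart. Its log2 fold change was -0.75 ± 0.14 for BMP2+DM against PBS (adjusted p = 0.000666), -0.41 ± 0.14 for BMP2+DM against BMP2 (0.0866) and -0.34 ± 0.13 for BMP2 against PBS (0.0979). Dnajb9, a BiP cochaperone that restrains Ern1, had 20.9 and 19.4 CPM in BMP2+DM libraries, 24.1 and 22.9 CPM in BMP2 libraries, and 30.6 and 31.5 CPM in PBS libraries. Dnajb9 fell in BMP2+DM against PBS (-0.62 ± 0.14, adjusted p = 0.00339) and did not pass in BMP2 against PBS (-0.40 ± 0.14, 0.0547; 0.0498 without BMP2+DM replicate 1).

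The remaining cochaperones, Dnajb11, Dnajc3 and Sdf2l1, passed no test. Sdf2l1, which works with Dnajb11 on BiP clients, had 21.1 and 18.5 CPM in BMP2+DM libraries, 22.6 and 17.1 CPM in BMP2 libraries, and 19.3 and 20.6 CPM in PBS libraries. These ranges overlapped throughout, and its log2 fold changes lay between -0.01 and 0.00 with an SE of 0.17. Dnajc3, which also dampens Eif2ak3, had 111 and 120 CPM in BMP2+DM libraries, 128 and 132 CPM in BMP2 libraries, and 135 and 128 CPM in PBS libraries. The BMP2+DM pair was below both other pairs, with a log2 fold change of -0.18 ± 0.07 against PBS (adjusted p = 0.0915).

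The lectin chaperones hold glycoproteins while they fold, and the pair did not move alike. Calr (calreticulin, chr8:84841850-84846934) is soluble and Canx (calnexin) sits in the membrane. Calr had 701 and 711 CPM in BMP2+DM libraries, 931 and 882 CPM in BMP2 libraries, and 1020 and 1017 CPM in PBS libraries. All 3 groups were separated. Calr fell by 22.1% in BMP2+DM against BMP2 (log2 fold change -0.36 ± 0.05, adjusted p = 0.000188), fell by 30.7% in BMP2+DM against PBS (-0.53 ± 0.05, 6.48e-07) and fell by 11% in BMP2 against PBS (-0.17 ± 0.05, 0.0332). The call of BMP2 against PBS was lost without PBS replicate 1, PBS replicate 2 or BMP2 replicate 2 (adjusted p = 0.112 to 0.224).

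Canx had 604 and 595 CPM in BMP2+DM libraries, 630 and 628 CPM in BMP2 libraries, and 592 and 593 CPM in PBS libraries. The BMP2 pair was the highest and the other pairs lay close together. No comparison passed: the log2 fold change was 0.09 ± 0.05 for BMP2 against PBS (adjusted p = 0.261), -0.07 ± 0.05 for BMP2+DM against BMP2 (0.437) and 0.02 ± 0.05 for BMP2+DM against PBS (0.858). Both lectin genes carry an exact ERSE in their windows. The difference between the genes was not itself tested.

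Disulfide isomerases form and shuffle the disulfide bonds of folding proteins. Of 7 such genes, 3 fell in BMP2 against PBS, 5 in BMP2+DM against BMP2 and 5 in BMP2+DM against PBS. That is 42.9%, 71.4% and 71.4%, against 9.29%, 4.44% and 11.5% of all tested genes. Pdia6 (chr12:17266545-17284770), a BiP-associated isomerase, had 285 and 270 CPM in BMP2+DM libraries, 342 and 323 CPM in BMP2 libraries, and 425 and 399 CPM in PBS libraries. The groups were separated by more than their replicates differed. Its log2 fold change was -0.31 ± 0.05 for BMP2 against PBS (adjusted p = 0.000416), -0.26 ± 0.05 for BMP2+DM against BMP2 (0.00418, but 0.0951 without BMP2 replicate 1) and -0.57 ± 0.05 for BMP2+DM against PBS (3.46e-07). The BMP2 against PBS call of Pdia6 was kept in 11 of 12 alternatives.

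Pdia4 had 167 and 162 CPM in BMP2+DM libraries, 193 and 203 CPM in BMP2 libraries, and 226 and 235 CPM in PBS libraries. It too was ordered without overlap and fell in each comparison, with log2 fold changes of -0.22 ± 0.06 for BMP2 against PBS (adjusted p = 0.0192), -0.27 ± 0.06 for BMP2+DM against BMP2 (0.00856) and -0.49 ± 0.06 for BMP2+DM against PBS (1.13e-05). The BMP2 against PBS call of Pdia4 was lost without PBS replicate 2, BMP2 replicate 1 or BMP2 replicate 2 (adjusted p = 0.0526 to 0.162), and its BMP2+DM against BMP2 call without BMP2 replicate 2 (0.103) or BMP2+DM replicate 2 (0.0625).

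Pdia5, an isomerase of lower abundance, had 26.5 and 28 CPM in BMP2+DM libraries, 31.7 and 29.6 CPM in BMP2 libraries, and 43.2 and 45.3 CPM in PBS libraries. Both treated groups were far below PBS and near each other. Pdia5 fell by 30.6% in BMP2 against PBS (-0.53 ± 0.12, adjusted p = 0.0058, but 0.062 without PBS replicate 2 and 0.0632 without BMP2 replicate 2) and fell by 38.3% in BMP2+DM against PBS (-0.70 ± 0.12, 0.000472). BMP2+DM against BMP2 gave -0.17 ± 0.13 (0.486).

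Txndc5 (chr13:38500079-38528824), a thioredoxin-domain isomerase known for its part in collagen production by cardiac fibroblasts, had another pattern. It had 329 and 370 CPM in BMP2+DM libraries, 497 and 515 CPM in BMP2 libraries, and 472 and 492 CPM in PBS libraries. The BMP2 pair was slightly above the PBS pair, and both were well above BMP2+DM. Txndc5 fell by 30.9% in BMP2+DM against BMP2 (log2 fold change -0.53 ± 0.05, adjusted p = 3.2e-06) and fell by 27.5% in BMP2+DM against PBS (-0.46 ± 0.05, 4.01e-06). BMP2 against PBS gave 0.07 ± 0.05 (0.431). Exons of Bmp6 and Gm31834 on the opposite strand cover 11.9% of its exonic bases.

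Pdia3, the isomerase that works with the lectin chaperones, had 610 and 647 CPM in BMP2+DM libraries, 735 and 728 CPM in BMP2 libraries, and 743 and 762 CPM in PBS libraries. The BMP2 and PBS pairs lay close, with BMP2+DM below them. It fell in BMP2+DM against BMP2 (-0.22 ± 0.05, adjusted p = 0.0119) and against PBS (-0.26 ± 0.05, 0.00134). Without BMP2 replicate 1, BMP2 replicate 2 or BMP2+DM replicate 1, BMP2+DM against BMP2 missed the threshold (adjusted p = 0.0591 to 0.125). P4hb, which is both a disulfide isomerase and the beta subunit of collagen prolyl hydroxylase, had 908 and 910 CPM in BMP2+DM libraries, 1043 and 1021 CPM in BMP2 libraries, and 996 and 959 CPM in PBS libraries. P4hb fell in BMP2+DM against BMP2 (-0.18 ± 0.05, adjusted p = 0.0313), a call lost when either BMP2 or either BMP2+DM library was left out (0.0833 to 0.143), and gave -0.11 ± 0.05 against PBS (0.166). Erp44, which retains thiol proteins in the early secretory pathway, passed no test.

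**Figure D3:**
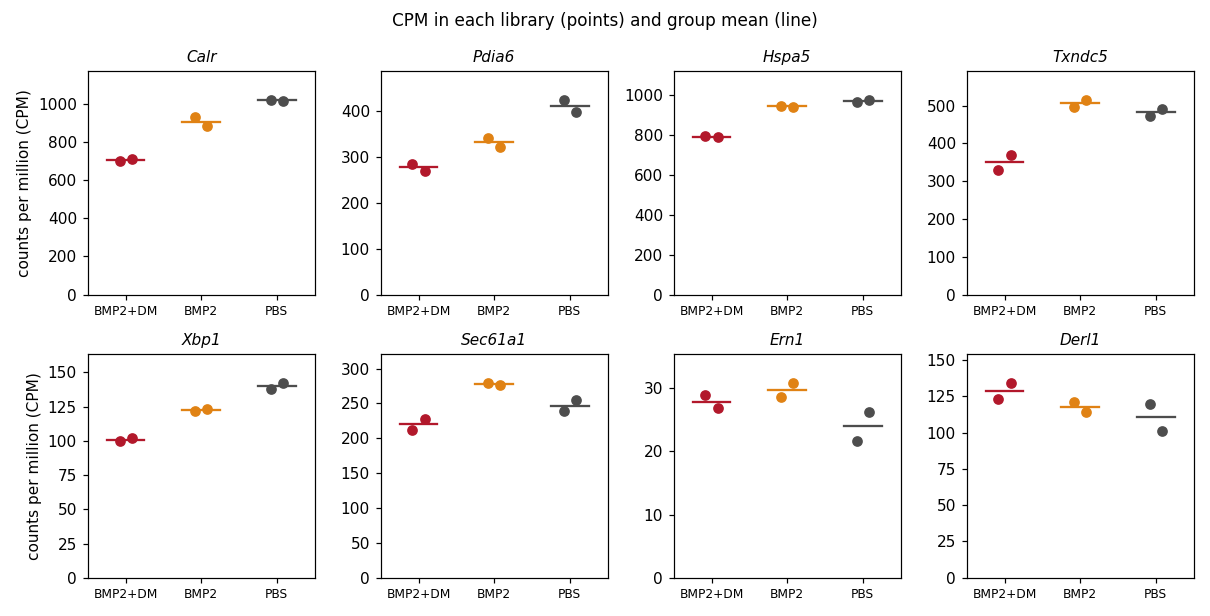
CPM of selected members in each library, with BMP2+DM left of BMP2 and PBS; each y axis starts at 0 and lines mark group means. Hspa5 lies at 794 and 791 CPM in BMP2+DM libraries, 946 and 943 CPM in BMP2 libraries, and 968 and 976 CPM in PBS libraries.

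Serpinh1 (Hsp47, chr7:99345376-99353239), the chaperone of procollagen, was the most abundant member per exon length, at 807 CPM per kilobase in BMP2+DM, 859 in BMP2 and 923 in PBS. Its CPM were 1918 and 2025 in BMP2+DM libraries, 2062 and 2136 in BMP2 libraries, and 2253 and 2258 in PBS libraries. It fell in BMP2+DM against PBS (log2 fold change -0.19 ± 0.05, adjusted p = 0.00691), a call lost without BMP2+DM replicate 1 (0.0592). Ppib, a prolyl isomerase that also acts on procollagen, had 189 and 202 CPM in BMP2+DM libraries, 225 and 220 CPM in BMP2 libraries, and 228 and 214 CPM in PBS libraries. Ppib passed narrowly in BMP2+DM against PBS (-0.18 ± 0.06, adjusted p = 0.0467) and lost the call in 9 of 12 alternatives, with an adjusted p of 0.0604 to 0.271 without each of the libraries other than BMP2+DM replicate 2. Exons of Snx22 on the opposite strand cover 25% of its exonic bases. Fkbp2, a lumenal prolyl isomerase, had 15.3 and 16.9 CPM in BMP2+DM libraries, 14.5 and 15.1 CPM in BMP2 libraries, and 19.9 and 21.2 CPM in PBS libraries. Both treated groups were below PBS, but no test of Fkbp2 passed (BMP2 against PBS -0.48 ± 0.16, adjusted p = 0.0542).

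The genes of ER-associated degradation passed no test. In edgeR none of the 7 was called in any comparison, and DESeq2 called 0 as well. At an unadjusted p under 0.05 the count was 0 in BMP2 against PBS and in BMP2+DM against BMP2, and 1 higher (Derl1) in BMP2+DM against PBS. Their median log2 fold changes were -0.07 for BMP2 against PBS, 0.07 for BMP2+DM against BMP2 and -0.03 for BMP2+DM against PBS. For the lumenal chaperones the medians were -0.17, -0.22 and -0.44 in the same order of comparisons. Whether the roles differ was not tested. Of all tested genes, edgeR called 15.8% in BMP2 against PBS, 8.73% in BMP2+DM against BMP2 and 20.9% in BMP2+DM against PBS.

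Sel1l and Syvn1 form the core of the ubiquitin ligase that retrotranslocates misfolded proteins. Sel1l had 133 and 145 CPM in BMP2+DM libraries, 127 and 138 CPM in BMP2 libraries, and 135 and 142 CPM in PBS libraries. These ranges overlapped in every pair of groups. Syvn1, whose window holds an exact ERSE, had 42 and 41.4 CPM in BMP2+DM libraries, 37.8 and 39.1 CPM in BMP2 libraries, and 44.7 and 42.7 CPM in PBS libraries. Os9, a lectin that delivers substrates to that ligase, had 84.1 and 79.6 CPM in BMP2+DM libraries, 74.3 and 70.7 CPM in BMP2 libraries, and 78.2 and 75.3 CPM in PBS libraries. BMP2+DM was the highest pair for Os9, with a log2 fold change against BMP2 of 0.17 ± 0.09 (adjusted p = 0.27).

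Derl1, a component of the export channel, had 123 and 134 CPM in BMP2+DM libraries, 121 and 114 CPM in BMP2 libraries, and 120 and 101 CPM in PBS libraries. The BMP2+DM pair was again on top. Derl1 gave 0.22 ± 0.09 in BMP2+DM against PBS (adjusted p = 0.0912) and passed as higher only without PBS replicate 1 (0.0306) or without the filter on low counts. Herpud1, a stress-induced scaffold of the ligase, had 64.9 and 66.7 CPM in BMP2+DM libraries, 68.1 and 62.8 CPM in BMP2 libraries, and 80.2 and 69.9 CPM in PBS libraries. Its log2 fold change was -0.19 ± 0.10 in BMP2+DM against PBS (adjusted p = 0.193). Edem1, which marks glycoproteins for degradation, ranged from 85.9 to 97 CPM over the 6 libraries. Derl2 ranged from 40.4 to 53.3 CPM, and both BMP2+DM libraries lay below both PBS libraries. Its log2 fold change in BMP2+DM against PBS was -0.23 ± 0.12 (edgeR adjusted p = 0.199).

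Of the stress sensors and Xbp1, only Xbp1 passed a test. Xbp1 (chr11:5520659-5525893) had 99.7 and 102 CPM in BMP2+DM libraries, 122 and 123 CPM in BMP2 libraries, and 138 and 142 CPM in PBS libraries. Replicates were tight and the groups well apart. It fell by 27.9% in BMP2+DM against PBS (log2 fold change -0.47 ± 0.07, adjusted p = 0.000102) and fell by 17.3% in BMP2+DM against BMP2 (-0.27 ± 0.07, 0.0243). The call of BMP2+DM against BMP2 was lost when either BMP2 or either BMP2+DM library was left out (adjusted p = 0.0702 to 0.123). BMP2 against PBS gave -0.20 ± 0.07 (0.0694). Counts per gene do not separate spliced from unspliced Xbp1 mRNA, so the activity of the Ern1 branch was not measured.

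The sensors were among the least abundant members per exon length. Ern1 (IRE1) stood at 3.42 CPM per kilobase in BMP2+DM, 3.64 in BMP2 and 2.94 in PBS. Its CPM were 28.9 and 26.9 in BMP2+DM libraries, 28.6 and 30.8 in BMP2 libraries, and 21.7 and 26.3 in PBS libraries. Both treated pairs were above the PBS pair, but the log2 fold change of BMP2 against PBS, 0.31 ± 0.14, did not pass (adjusted p = 0.158). Eif2ak3 (PERK) had 29.9 and 27.3 CPM in BMP2+DM libraries, 25.9 and 36.9 CPM in BMP2 libraries, and 32.7 and 26.8 CPM in PBS libraries. Atf6 had 73.5 and 65.7 CPM in BMP2+DM libraries, 74.3 and 78.5 CPM in BMP2 libraries, and 72.2 and 83.5 CPM in PBS libraries. For Eif2ak3 every pair of groups overlapped, with log2 fold changes between -0.13 and 0.07 and an SE of 0.16. Atf6 gave -0.16 ± 0.10 in BMP2+DM against PBS (adjusted p = 0.295), with overlapping groups.

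Of 4 translocon genes, 3 fell in BMP2+DM against BMP2 (all but Sec61b), 2 in BMP2+DM against PBS and 0 in BMP2 against PBS (edgeR; DESeq2 also 0; 1 higher at an unadjusted p under 0.05). The edgeR shares lower were 75%, 50% and 0% in that order, against 4.44%, 11.5% and 9.29% of all tested genes. Sec61a1, the channel subunit, had 212 and 228 CPM in BMP2+DM libraries, 279 and 276 CPM in BMP2 libraries, and 239 and 255 CPM in PBS libraries. BMP2 libraries were the highest and BMP2+DM libraries the lowest. Its log2 fold change was -0.33 ± 0.06 in BMP2+DM against BMP2 (adjusted p = 0.00113), while 0.17 ± 0.06 in BMP2 against PBS (0.0574) and -0.17 ± 0.06 in BMP2+DM against PBS (0.052) lay just outside the threshold. Without BMP2+DM replicate 1 (adjusted p = 0.0432) or replicate 2 (0.0449), Sec61a1 passed as higher in BMP2 against PBS, and without BMP2+DM replicate 2 (0.0388) as lower in BMP2+DM against PBS.

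Serp1, a small protein that stabilizes membrane proteins at the translocon during stress, had 178 and 172 CPM in BMP2+DM libraries, 227 and 202 CPM in BMP2 libraries, and 199 and 195 CPM in PBS libraries. Like Sec61a1 it was highest with BMP2 and lowest with BMP2+DM, and it fell in BMP2+DM against BMP2 (-0.30 ± 0.07, adjusted p = 0.00755, but 0.142 without BMP2 replicate 1 and 0.0542 without BMP2+DM replicate 2). Ssr1, a subunit of the translocon-associated complex, had 244 and 255 CPM in BMP2+DM libraries, 286 and 309 CPM in BMP2 libraries, and 303 and 313 CPM in PBS libraries. Ssr1 fell in BMP2+DM against BMP2 (-0.25 ± 0.06, adjusted p = 0.00716, but 0.128 without BMP2 replicate 2) and against PBS (-0.30 ± 0.06, 0.000639). Sec61b, the small channel subunit, had 49.9 and 46.4 CPM in BMP2+DM libraries, 55.4 and 52 CPM in BMP2 libraries, and 66.5 and 57.3 CPM in PBS libraries. It fell in BMP2+DM against PBS (-0.37 ± 0.11, adjusted p = 0.0237), a call lost without PBS replicate 1 (0.248) or BMP2+DM replicate 2 (0.135).

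Members with and without an exact ERSE in their window can be set side by side as a description. In BMP2+DM against PBS, 5 of 8 members with the element were lower, with a median log2 fold change of -0.37, and 10 of 23 without it, with a median of -0.19. In BMP2+DM against BMP2 the counts were 4 of 8 (median -0.26) with it and 7 of 23 (median -0.16) without it. In BMP2 against PBS they were 3 of 8 (median -0.17) and 2 of 23 (median -0.07). Of all tested genes, 11.5%, 4.44% and 9.29% were lower in these comparisons, and 2 of 23 is close to the last. The 23 include Dnajb11 and Herpud1, which carry ERSE-II. Members without a window, such as Hyou1 and Manf, enter neither set. Whether the sets differ was not tested. Within the 8, Canx and Syvn1 passed no test in any comparison, and neither did Dnajc3, while Hsp90b1, Calr and Pdia6 passed in all 3.

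Other genes of the same organelle were read from 8 lists that together hold 165 genes, of which 159 were tested. Of these, 43 fell and 8 rose in BMP2+DM against PBS, 16 fell and 5 rose in BMP2+DM against BMP2, and 17 fell and 3 rose in BMP2 against PBS. The share lower was 27% in BMP2+DM against PBS, 10.1% in BMP2+DM against BMP2 and 10.7% in BMP2 against PBS, where 11.5%, 4.44% and 9.29% of all tested genes were lower, so the last is close to that of all genes. The share higher was 5.03%, 3.14% and 1.89%, against 9.38%, 4.28% and 6.55% of all tested genes. Their median log2 fold changes were -0.12, -0.05 and -0.08 in that order, against 0.01, 0.00 and 0.00 over all tested genes. DESeq2 gave 37 lower and 5 higher, 11 lower and 4 higher, and 16 lower and 2 higher. Without PBS replicate 1 and BMP2 replicate 1 together, edgeR gave 20 lower and 4 higher, 3 lower and 1 higher, and 2 lower and 0 higher.

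Genes of collagen modification included 12 of 18 that fell in BMP2+DM against PBS, 8 in BMP2 against PBS and 2 in BMP2+DM against BMP2. The shares were 66.7%, 44.4% and 11.1%, against 11.5%, 9.29% and 4.44% of all tested genes. None was higher by edgeR or DESeq2, and 1 was higher in BMP2+DM against BMP2 at an unadjusted p under 0.05. Fkbp10, a prolyl isomerase that assists procollagen folding, averaged 201 ± 9.03 CPM in BMP2+DM, 237 ± 3.15 CPM in BMP2 and 302 ± 0.103 CPM in PBS (SD, n = 2 each). It fell in all 3 comparisons, with log2 fold changes of -0.59 ± 0.06 for BMP2+DM against PBS (edgeR adjusted p = 4.41e-07), -0.23 ± 0.06 for BMP2+DM against BMP2 (0.0129) and -0.35 ± 0.06 for BMP2 against PBS (0.00019). The lysyl hydroxylase Plod1 fell in BMP2 against PBS (-0.49 ± 0.08, edgeR adjusted p = 0.000201). The prolyl hydroxylase P3h2 averaged 9.3 ± 0.734 CPM in BMP2 and 21.1 ± 3.82 CPM in PBS, and fell in the same comparison (-1.17 ± 0.19, 0.000316).

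Fibrillar collagen chains, the main cargo of this pathway in fibroblasts, were mostly called lower, with 1 called higher in each comparison. Their sum was 11650 and 12146 CPM in BMP2+DM libraries, 12952 and 13324 CPM in BMP2 libraries, and 13410 and 14370 CPM in PBS libraries. Of 7 chains, 6 fell and 1 rose in BMP2+DM against PBS, 4 fell and 1 rose in BMP2+DM against BMP2, and 5 fell and 1 rose in BMP2 against PBS. The shares lower were 85.7%, 57.1% and 71.4%, against 11.5%, 4.44% and 9.29% of all tested genes. The share higher was 14.3% each time, against 9.38%, 4.28% and 6.55%. Col1a1 averaged 3240 ± 48.6 CPM in BMP2+DM and 4840 ± 33.6 CPM in BMP2 (log2 fold change -0.58 ± 0.04, edgeR adjusted p = 3.94e-08). Col3a1 went the other way, with 3820 ± 174 CPM in BMP2+DM and 2660 ± 103 CPM in BMP2 (0.52 ± 0.05, 2.15e-06). The part of collagen output in the levels of the folding genes was not tested.

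Genes of export from the ER come next. Of 21 genes of the COPII coat and of KDEL retrieval, 10 fell in BMP2+DM against PBS, 7 in BMP2+DM against BMP2 and 2 in BMP2 against PBS, where 1 rose. That is 47.6%, 33.3% and 9.52% lower, against 11.5%, 4.44% and 9.29% of all tested genes, the last being close to all genes. DESeq2 gave 9, 5 and 1 lower and called 0 higher. Sec31a, of the outer coat, averaged 298 ± 6.33 CPM in BMP2+DM, 365 ± 21.8 CPM in BMP2 and 326 ± 10.5 CPM in PBS. It fell in BMP2+DM against BMP2 (log2 fold change -0.29 ± 0.05, edgeR adjusted p = 0.00178) and passed narrowly as higher in BMP2 against PBS (0.16 ± 0.05, 0.0487), a call that DESeq2 did not make. Sec23a, of the inner coat, fell in all 3 comparisons, with a log2 fold change of -0.51 ± 0.07 in BMP2+DM against PBS (edgeR adjusted p = 1.94e-05).

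Among 19 tested genes of N-glycosylation and glycoprotein quality control, 7 fell in BMP2+DM against PBS and 3 in BMP2+DM against BMP2; DESeq2 gave 4 and 1. The edgeR shares lower were 36.8% and 15.8%, against 11.5% and 4.44% of all tested genes. In BMP2 against PBS edgeR and DESeq2 called 0, with 1 lower at an unadjusted p under 0.05. Rpn1, of the oligosaccharyltransferase, fell in BMP2+DM against BMP2 (log2 fold change -0.27 ± 0.06, edgeR adjusted p = 0.005). Of 26 further degradation genes, edgeR called 1 higher in BMP2+DM against PBS (Nploc4), 1 higher in BMP2+DM against BMP2 (Herpud2) and 0 in BMP2 against PBS, where 2 were higher and 1 lower at an unadjusted p under 0.05. DESeq2 called 0 in each. The edgeR share higher was 3.85% in BMP2+DM against PBS and in BMP2+DM against BMP2, against 9.38% and 4.28% of all tested genes.

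Further chaperones and targeting factors included a few calls in both directions. Of 17 other chaperones, 5 fell and 1 rose in BMP2+DM against PBS, 1 fell in BMP2+DM against BMP2, and 2 fell and 1 rose in BMP2 against PBS. The shares lower were 29.4%, 5.88% and 11.8% in that order, against 11.5%, 4.44% and 9.29% of all tested genes. Those of BMP2+DM against BMP2 and of BMP2 against PBS are near all genes. The shares higher were 5.88%, 0% and 5.88%, against 9.38%, 4.28% and 6.55%. The lumenal calcium-binding proteins Rcn3 (-0.56 ± 0.07) and Calu (-0.39 ± 0.05) were among those that fell in BMP2+DM against PBS. Of 24 genes of targeting and translocation, 3, 1 and 1 fell in the same order of comparisons (12.5%, 4.17% and 4.17%), which is near or below the 11.5%, 4.44% and 9.29% of all tested genes. Spcs3, of the signal peptidase, averaged 174 ± 14.6 CPM in BMP2+DM, 202 ± 5.03 CPM in BMP2 and 266 ± 10.5 CPM in PBS (BMP2 against PBS -0.40 ± 0.06, edgeR adjusted p = 0.000294).

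Other oxidoreductases were called in both directions. Of 16 tested, 3 fell and 3 rose in BMP2+DM against PBS (18.8% each way, against 11.5% lower and 9.38% higher over all tested genes), 2 rose in BMP2+DM against BMP2, and 1 fell and 1 rose in BMP2 against PBS. The share higher in BMP2+DM against BMP2 was 12.5%, against 4.28% of all tested genes. In BMP2 against PBS 6.25% went each way, near or below the 9.29% lower and 6.55% higher over all tested genes. Qsox1, a secreted sulfhydryl oxidase, averaged 158 ± 1.03 CPM in BMP2+DM, 170 ± 14.9 CPM in BMP2 and 269 ± 2.56 CPM in PBS. It fell in BMP2 against PBS (log2 fold change -0.66 ± 0.07, edgeR adjusted p = 1.11e-06). Txndc16 averaged 39.9 ± 4.29 CPM in BMP2+DM, 21 ± 2.83 CPM in BMP2 and 22.1 ± 1.59 CPM in PBS, and rose in BMP2+DM against BMP2 (0.92 ± 0.15, 0.000489). Tmx2, a membrane thioredoxin protein, rose in all 3 comparisons, by 0.68 ± 0.08 in BMP2+DM against PBS (3.09e-06).

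Regulators of the unfolded protein response other than the members were also called in both directions. Of 18 tested, 3 fell and 3 rose in BMP2+DM against PBS, 2 fell and 2 rose in BMP2+DM against BMP2, and 3 fell in BMP2 against PBS. These are small counts: 16.7% each way in BMP2+DM against PBS, where 11.5% of all tested genes were lower and 9.38% higher. In BMP2+DM against BMP2 the share was 11.1% each way, against 4.44% lower and 4.28% higher over all tested genes. In BMP2 against PBS 16.7% were lower, against 9.29%. Ddit3 (CHOP), a transcription factor of the Eif2ak3 branch, averaged 38.7 ± 0.855 CPM in BMP2+DM, 25.1 ± 1.72 CPM in BMP2 and 25.8 ± 1.97 CPM in PBS. It rose in BMP2+DM against BMP2 (log2 fold change 0.62 ± 0.13, edgeR adjusted p = 0.00587). Atf4, upstream of Ddit3 and named here after its values were seen, averaged 232 ± 12.2 CPM in BMP2+DM, 214 ± 6.25 CPM in BMP2 and 227 ± 10.9 CPM in PBS, and passed no test. Trib3, Chac1, Ppp1r15a and Nupr1, of the same list, passed no test either. Those that rose in BMP2+DM against PBS were Ddit3, Stc2 and Sesn2. These further genes were also named after their values were seen.

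Creb3l1 and Creb3l2 encode relatives of Atf6 that are cut in the same way and act on secretory and matrix genes. Creb3l1 averaged 119 ± 8.4 CPM in BMP2+DM, 174 ± 4.41 CPM in BMP2 and 152 ± 1.21 CPM in PBS, and fell in BMP2+DM against BMP2 (log2 fold change -0.55 ± 0.07, edgeR adjusted p = 6.02e-05). Creb3l2 averaged 105 ± 3.08 CPM in BMP2+DM, 130 ± 3.29 CPM in BMP2 and 162 ± 2.44 CPM in PBS, and fell in all 3 comparisons. Mbtps1, the protease that makes the first cut in Atf6, fell in BMP2+DM against PBS (-0.41 ± 0.08, 0.000969) and in BMP2 against PBS (-0.27 ± 0.08, 0.0241). Tmbim6, an ER membrane protein that dampens Ern1, fell in BMP2 against PBS (-0.35 ± 0.05, 0.000105) and rose in BMP2+DM against BMP2 (0.21 ± 0.05, 0.0148).

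**Figure D4:**
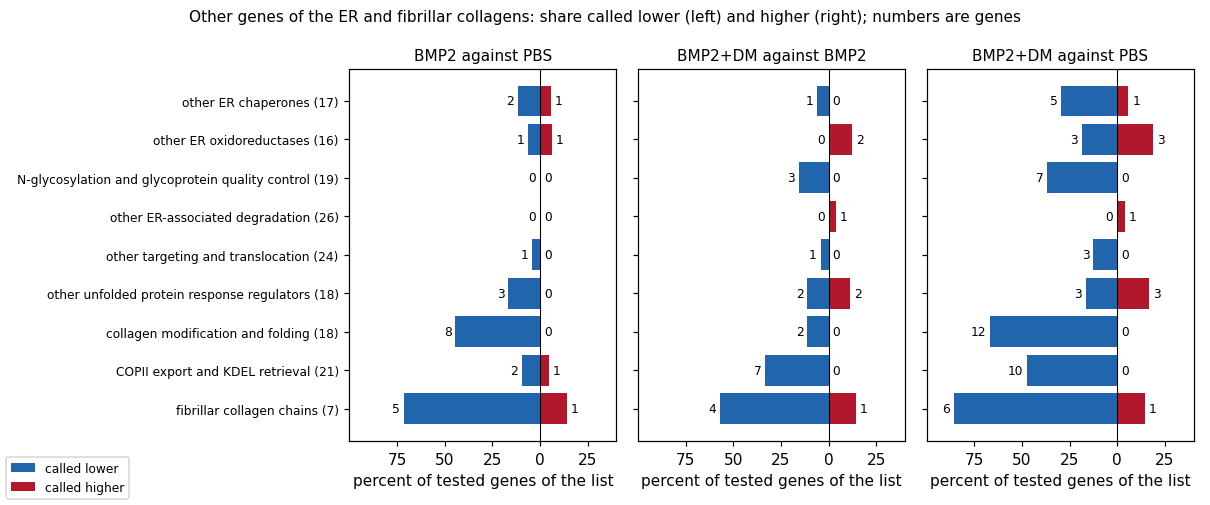
Percent of the tested genes of each list that were called lower (left of 0) or higher (right of 0) in each comparison; bar numbers are genes and bracketed numbers are genes tested. Collagen modification has 12 of 18 lower in BMP2+DM against PBS, and further degradation genes have 0 lower in all 3 comparisons.

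Markers of the cell types in such cultures also differed between groups. Summed over 10 fibroblast markers, levels were 10511 and 11031 CPM in BMP2+DM libraries, 11434 and 11709 CPM in BMP2 libraries, and 11621 and 12331 CPM in PBS libraries, with 6 lower and 2 higher in BMP2+DM against PBS. In BMP2+DM against BMP2, 4 fibroblast markers were lower and 3 higher, with a median log2 fold change of -0.07. The shares were 60% lower and 20% higher, then 40% and 30%, against 11.5% and 9.38%, then 4.44% and 4.28%, of all tested genes. Col1a1 and Col3a1 are both fibroblast markers here and fibrillar chains above, so the 2 sums are not separate. Over 10 endothelial markers, levels were 175 and 189 CPM in BMP2+DM libraries, 260 and 248 CPM in BMP2 libraries, and 270 and 276 CPM in PBS libraries. Both sums were lowest in BMP2+DM, though single fibroblast markers went both ways. Smooth muscle markers summed to 2351 and 2467 CPM in BMP2+DM libraries, 2312 and 2334 CPM in BMP2 libraries, and 3929 and 3946 CPM in PBS libraries. Of 10 cardiomyocyte markers, 7 were lower in BMP2+DM against PBS, 9 were lower in BMP2 against PBS, and 4 were higher in BMP2+DM against BMP2. That is 70% and 90% lower, against 11.5% and 9.29% of all tested genes, and 40% higher, against 4.28%.

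Markers of leukocytes and of the epicardium were summed as well. Macrophage and leukocyte markers, 5 of 10 of them tested, summed to 65.7 and 63.6 CPM in BMP2+DM libraries, 70.4 and 70.9 CPM in BMP2 libraries, and 94.9 and 94.2 CPM in PBS libraries. Epicardial markers summed to 248 and 235 CPM in BMP2+DM libraries, 205 and 212 CPM in BMP2 libraries, and 272 and 288 CPM in PBS libraries. No marker of the cardiomyocyte, fibroblast, endothelial, smooth muscle, leukocyte or epicardial lists was at 0 in every library. The part of cell makeup in the changes of the folding genes was not tested.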

How the data were processed

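Bulk RNA-seq of 6 libraries was analysed, 2 for each of BMP2+DM, BMP2 and PBS. Per the labels' protocols, RNA was extracted with TRIzol, selected with poly-T beads and fragmented. The deposited values are raw read counts for each gene symbol, in 1 table a library. The submitters' processing notes name mm10 and the tools STAR, HTSeq, Trimmomatic, FastQC and DESeq2, without versions; for the annotation and the strand setting, both not given in the sources used here, nothing was assumed. The 5 summary lines of each table, 53.8% to 54.2% of its total, name no gene and were left out. Reads assigned to no feature alone made up 49.7% to 50.1% of the total, and the cause was not tested.

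Members were matched by symbol. Genes were filtered with filterByExpr (minimum count 10, total 15), scaled by TMM and fitted in 1 model of the 3 group means in edgeR 4.0.16 (R 4.3.3), leaving 3 residual degrees of freedom. The common biological coefficient of variation was 0.0872. Errors of log2 fold changes are SE; SDs are over 2 libraries. Replicates differed by more than counting error (chi-square per degree of freedom 3.88 for BMP2+DM, 17.5 for BMP2 and 13.6 for PBS). The alternatives, 12 in all, were RLE scaling, no filter, a replicate block, DESeq2 1.42.0, removal of ribosomal-repeat models, each library left out, and BMP2 replicate 1 with PBS replicate 1 left out. Gene positions are from GENCODE vM21, which held 97.5% of the symbols.

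The members, lists and tests were chosen with earlier results of these data known. The rule gave values per library for members past the threshold in a comparison, and for the sensors, Xbp1, Hspa5 and Hsp90b1 whatever their p. Those of Canx, Sdf2l1, Dnajc3, Fkbp2, Sel1l, Syvn1, Os9, Derl1 and Herpud1, which passed no test, were added after their values were seen. From each other list, up to 3 genes with the smallest p past the threshold in each comparison could be named; their values in further comparisons, chosen after seeing them, stand beside.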

Additional observations from a re-analysis of the deposited data

How the results depend on the processing

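No log2 fold change past the threshold changed sign under any of the 12 alternatives. Values that had not passed did so 34 times, in 12 members, and then lay between -0.2 and 0.18; this leaves out Sdf2l1 in BMP2+DM against BMP2, whose value of -0.00 ranged from -0.19 to 0.21. Leaving out 1 library at a time gave 15 to 17 members lower in BMP2+DM against PBS, 7 to 13 in BMP2+DM against BMP2 and 1 to 8 in BMP2 against PBS. In these runs 0 to 1 members were higher in BMP2+DM against PBS and in BMP2 against PBS, and 0 in BMP2+DM against BMP2. Without BMP2 replicate 1 and PBS replicate 1 together, the lower counts were 13, 3 and 0 in the same order; fewer samples and 1 library on a side enter these fits. Without the filter on low counts, 19, 14 and 7 were lower, 1 was higher in BMP2+DM against PBS (Derl1) and 1 higher in BMP2 against PBS (Sec61a1); the cause was not tested. RLE scaling gave 18, 13 and 7 lower, removal of the ribosomal-repeat models 16, 13 and 7, and DESeq2 16, 13 and 7.

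Over all tested genes, same-numbered libraries deviated from their group means with correlations of -0.0376 to 0.0248. Counting noise of weak genes enters these values, so they cannot exclude a batch shared by some libraries. PBS replicate 1 and BMP2 replicate 1 both held more ribosomal-repeat counts (1.31% and 2.1%) than replicate 2 of those groups (0.0702% and 0.0928%). A fit with the number as a replicate block, with 2 residual degrees of freedom, gave 16 members lower in BMP2+DM against PBS, 13 in BMP2+DM against BMP2 and 7 in BMP2 against PBS. With 2 libraries a group, small changes of the less abundant sensors, whose SE was 0.10 to 0.16, were not detectable.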
